A study of Mus musculus with 17 samples.

Results

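The genes described here are 9 secreted or metal-binding proteins of the inflammatory response in mouse liver: the serum amyloids Saa1, Saa2 and Saa3, the orosomucoids Orm1 and Orm2, haptoglobin (Hp), the metallothioneins Mt1 and Mt2, and the granulocyte colony stimulating factor Csf3. They were taken by gene symbol from the deposited count tables. All 9 had a row in the Kupffer cell table of 18185 genes. The early hepatocellular carcinoma (HCC) and liver tables, of 17140 genes, held a row for 7, with none for Saa1 or Saa2. Saa3 and Csf3 were chosen by their measured levels, being among the genes with the largest differences between the Kupffer cell groups, so the Kupffer cell values of all members are given as a description with no test.

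RNA was sequenced from 17 mouse libraries in 5 groups. Early HCC cells came from mice in which tumours were induced with DEN, the liver carcinogen diethylnitrosamine, and carried either a knockout of the transcription factor gene Mef2d (KO, 3 libraries) or wild-type Mef2d (WT, 3 libraries). A further 3 libraries held normal liver cells of mice with no stated treatment. Kupffer cells, which are liver-resident macrophages, came from DEN-treated mice and formed the groups KC1 and KC2, with 4 libraries each. The labels link those cells to a "PME", which they do not spell out, and say nothing of what separates KC1 from KC2. The labels give no strain, age or sex of the mice, no deleted part of Mef2d and no number of animals per library. Nothing in the labels says that replicates came from separate animals, so p-values measure only how these libraries vary, which may be technical variation.

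Library totals lay between 15353249 and 18637765 counts, so that 3 counts, used here as a floor, equal 0.161 to 0.195 CPM per library, where CPM is a count scaled to a library total of 1000000. Mef2d was at 69.0, 63.3 and 65.7 CPM in the libraries labelled KO and at 101, 99.0 and 106 CPM in WT, a 1.52-fold lower level and not a loss of the transcript. The worksheet of the KO and WT values carries the name "H22 C1C17 AML sh vs ctrl", which speaks of another design than the labels. Hepatocyte markers went against the liver labels: Alb lay between 0 and 0.402 CPM in the 6 early HCC libraries and between 2.09 and 2.60 CPM in normal liver. The 7 hepatocyte markers with a row summed to 0.465 to 2.79 CPM in KO, 1.05 to 1.53 in WT and 116 to 125 in normal liver, where Hnf4a alone gave 113 to 121. In the Kupffer cell libraries 12 macrophage markers summed to 33862 to 44161 CPM in KC1 and to 20958, 23647 and 24708 CPM in KC2 replicates 2 to 4, but to 5012 CPM in KC2 replicate 1. That library stood apart from the rest of its group: chi-square per degree of freedom over genes was 138 to 178 for its pairs and 24.2 to 39.8 among the other 3. The members' Kupffer cell differences and the counts over each Kupffer cell gene list are therefore given with and without it. The single genes named from those lists moved by 1.5 times or less without it, except Ifng and Csf2, whose values are given below.

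Acute phase proteins are plasma proteins that hepatocytes, and some of them macrophages, make in larger amounts after injury or infection. Interleukin-6 acting through STAT3, and interleukin-1 acting through NF-kB and C/EBP factors, are their best-known inducers. Serum amyloid A proteins travel on high-density lipoprotein, and in mice Saa3 is the form best known from macrophages and adipose tissue. Orosomucoid, also called alpha-1-acid glycoprotein, binds drugs and small lipophilic molecules in plasma, and haptoglobin captures free haemoglobin. Metallothioneins bind zinc, copper and cadmium through their cysteines and are switched on by the zinc-sensing factor MTF1 at metal response elements, as well as by glucocorticoids and interleukin-6. Csf3 drives the production and release of neutrophils from bone marrow.

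The members sit partly in pairs of neighbouring copies (RefSeq records, GRCm38). On chromosome 7 Saa3 (46711998 to 46719615), Saa1 (46740497 to 46743181) and Saa2 (46751833 to 46754313) follow each other with gaps of 20881 and 8651 bases. On chromosome 4 Orm1 (63344556 to 63348163) lies 14285 bases from Orm2 (63362449 to 63365877). On chromosome 8 Mt2 (94172618 to 94173567) lies 5315 bases from Mt1 (94178883 to 94180327), and Hp (109575128 to 109579172) stands apart. Csf3 is on chromosome 11 (98700183 to 98703631). The first annotated transcripts of Saa1 and Saa2 were identical over 93.9% of aligned bases and those of Orm1 and Orm2 over 91.0%, against 60.7% for Mt1 and Mt2 and 62.2% for Saa1 and Saa3. Expected counts divide reads between such copies by a model, so the single values of Saa1 and Saa2, and of Orm1 and Orm2, are uncertain and their sums are given too.

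The promoters of the serum amyloid genes are shown because Saa1 and Saa2 moved alongside Saa3 in the Kupffer cells while sharing little sequence with it. Each line gives 250 bases before and 50 after the annotated start (RefSeq, GRCm38.p6), read 5′ to 3′ on the gene's strand, with the C/EBP motif TTGCNNAA, searched on both strands, in capitals. The windows are chr7:46742931-46743230 (minus strand), chr7:46751583-46751882 (plus strand) and chr7:46715627-46715926 (minus strand). Those of Saa1 and Saa3 start inside the gene's record, so other starts exist.
Saa1: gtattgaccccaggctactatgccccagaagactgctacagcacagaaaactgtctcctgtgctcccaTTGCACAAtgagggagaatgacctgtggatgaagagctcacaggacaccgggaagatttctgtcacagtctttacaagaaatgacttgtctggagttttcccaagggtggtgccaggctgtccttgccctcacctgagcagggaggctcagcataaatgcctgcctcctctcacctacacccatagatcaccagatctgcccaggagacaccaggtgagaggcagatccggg
Saa2: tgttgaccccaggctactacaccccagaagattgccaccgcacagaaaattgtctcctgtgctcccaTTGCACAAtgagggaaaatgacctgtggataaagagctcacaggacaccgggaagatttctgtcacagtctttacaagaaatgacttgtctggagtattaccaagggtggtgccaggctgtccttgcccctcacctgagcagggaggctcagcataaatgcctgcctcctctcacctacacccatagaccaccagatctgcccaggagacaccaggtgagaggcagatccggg
Saa3: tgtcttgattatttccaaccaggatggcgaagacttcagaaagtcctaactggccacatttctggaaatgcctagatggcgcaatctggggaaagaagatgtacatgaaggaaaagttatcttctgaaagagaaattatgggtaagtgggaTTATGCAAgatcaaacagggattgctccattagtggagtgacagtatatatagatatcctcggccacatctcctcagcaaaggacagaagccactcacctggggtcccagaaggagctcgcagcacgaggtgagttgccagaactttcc
The windows of Saa1 and Saa2 were identical at 287 of 301 aligned positions (95.3%), and that of Saa3 matched Saa1 at 50.9%. Aligned in the same way, windows of members from different families matched at 45.4% to 49.5%, so 50.9% is little above that level. The motif began at -182 from the start in Saa1, at -183 in Saa2 and, on the other strand, at -99 in Saa3. Of 32851 promoters of the same length in RefSeq, 10.8% held it. The STAT3 motif TTCNNNGAA, present in 8.30% of all promoters, and the NF-kB motif, present in 8.46%, had no match in these 3 windows.

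The metallothionein promoters are shown because these genes had the highest levels of the set in the early HCC cells. Capitals mark the metal response element, TGCACNC or TGCGCNC on either strand, in the windows chr8:94178839-94179138 (plus strand) and chr8:94172368-94172667 (plus strand), of which that of Mt1 starts inside the gene's record.
Mt1: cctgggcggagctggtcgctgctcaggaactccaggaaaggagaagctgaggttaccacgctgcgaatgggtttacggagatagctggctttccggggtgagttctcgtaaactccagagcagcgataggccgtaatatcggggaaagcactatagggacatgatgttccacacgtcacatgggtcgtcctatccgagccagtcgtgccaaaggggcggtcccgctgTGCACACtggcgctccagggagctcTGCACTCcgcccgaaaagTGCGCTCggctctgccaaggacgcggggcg
Mt2: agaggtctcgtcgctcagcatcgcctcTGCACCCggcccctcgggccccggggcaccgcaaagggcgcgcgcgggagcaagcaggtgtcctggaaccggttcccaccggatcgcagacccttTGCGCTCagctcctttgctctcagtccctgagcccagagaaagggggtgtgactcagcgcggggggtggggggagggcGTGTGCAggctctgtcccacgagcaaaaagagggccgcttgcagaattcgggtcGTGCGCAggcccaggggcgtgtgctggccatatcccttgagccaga
Mt2 had 4 matches, at -223, -128, -50 and 5 from its annotated start, and Mt1 had 3, at -23, 3 and 21. One match or more was found in 25.7% of all promoters, 2 or more in 7.11% and 4 or more in 0.517%. RefSeq promoters were matched for 6 of the 9 members, the others being Orm2, with a C/EBP match at -120, and no match was available for Orm1, Hp and Csf3.

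**Figure D1:**
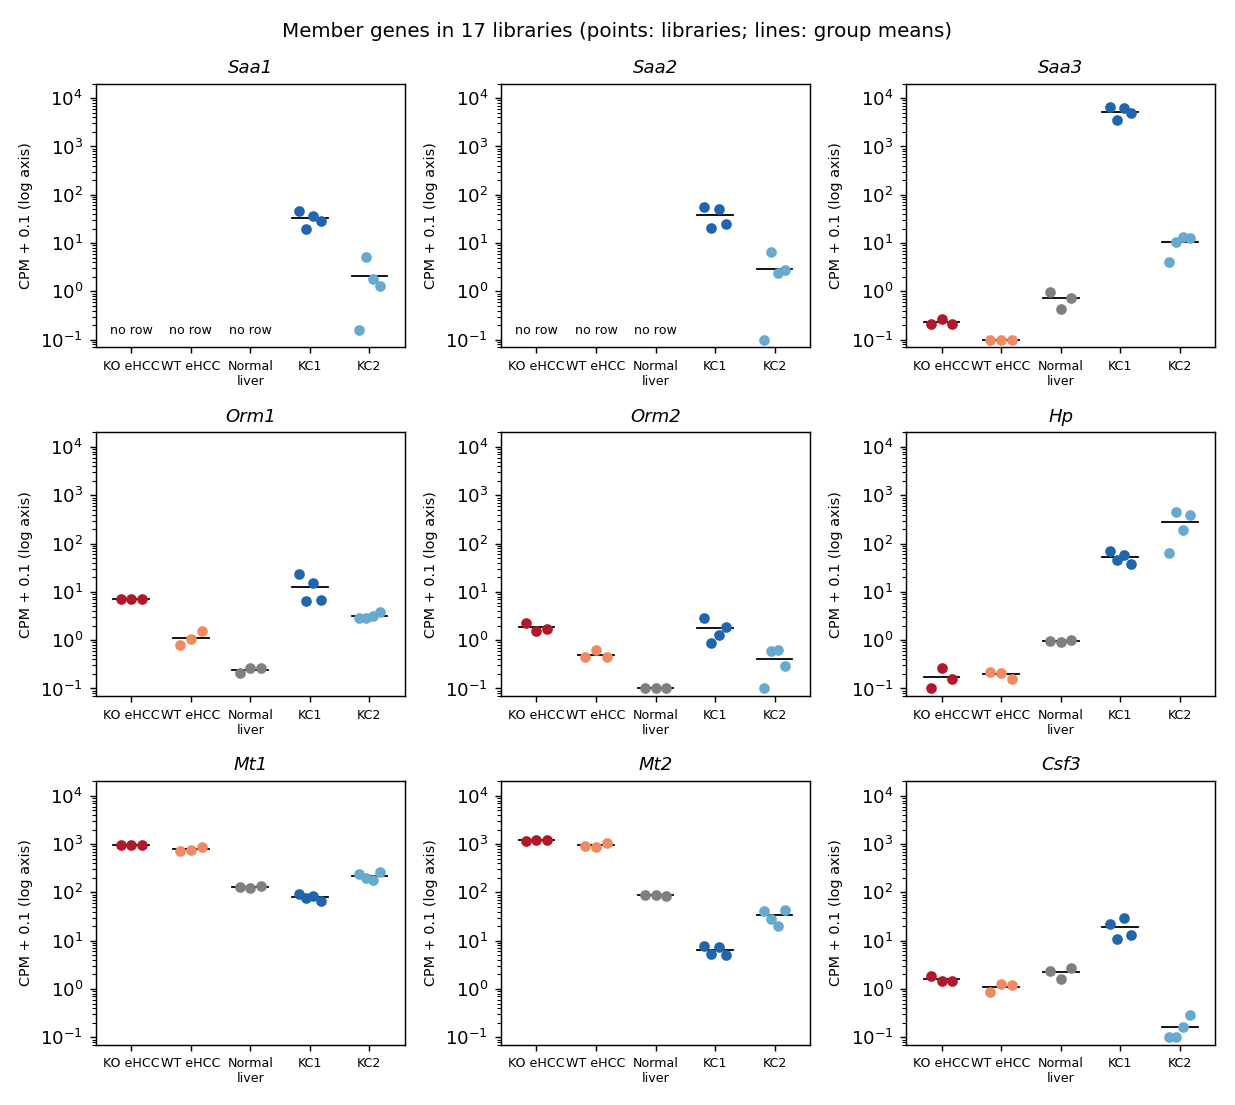
Level of each member in every library, in CPM plus 0.1 on a log axis, by group, where points are libraries and lines are group means. Saa3 in KC1 lies between 3498 and 6511 CPM, above every other member and group, and Mt1 and Mt2 are highest in the KO libraries.

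Among the serum amyloids, Saa3 stood out in KC1, where it was the most abundant of all members in any group. Saa3 was at 6511, 3498, 6147 and 4861 CPM in KC1, a mean of 5254 ± 1368 (SD, n = 4). In KC2 it was at 4.01, 10.5, 13.5 and 12.8 CPM, a mean of 10.2 ± 4.32 (SD, n = 4). Every KC1 library lay above every KC2 library, and the fitted difference was 596-fold, or 488-fold without KC2 replicate 1. Corrected for transcript length, the level of Saa3 in KC1 was 9467 ± 2465 RPKM (CPM per kilobase of transcript), against 53.0 ± 18.2 for Saa1 and 62.5 ± 30.0 for Saa2 (SD, n = 4).

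Saa1 and Saa2, the circulating forms made mainly by hepatocytes, were found at far lower levels in the same libraries and in the same order of groups. Saa1 was at 45.3, 19.3, 36.3 and 28.3 CPM in KC1 and at 0.0599, 5.12, 1.67 and 1.18 CPM in KC2. Saa2 was at 56.3, 20.4, 50.6 and 24.4 CPM in KC1 and at 0, 6.55, 2.27 and 2.61 CPM in KC2. Neither gene's groups overlapped, and the fitted differences were 18.6-fold for Saa1 and 15.3-fold for Saa2, or 13.8-fold and 11.3-fold without KC2 replicate 1 and 38.9-fold and 27.1-fold without KC2 replicate 2. Both passed the filter on low counts in every KC1 library but not in every KC2 library. Their sum was 70.2 ± 28.8 CPM in KC1 and 4.87 ± 4.88 in KC2 (SD, n = 4). Saa2 took 52.8% ± 5.22 of that sum in KC1 and, in KC2 replicates 2 to 4, between 56.1% and 68.9%. KC1 replicate 2 was the lowest of its group for all 3 genes.

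Outside the Kupffer cells Saa3 was low, at or under the floor in KO and WT and above it in normal liver. KO libraries held 7 counts in all, at 0.115, 0.171 and 0.113 CPM, and all WT libraries were at 0, so both groups were at or under the floor of each library and no fold is given. Normal liver held 34 counts, at 0.866, 0.325 and 0.644 CPM, and WT, with the floor of 3 counts taken in each library, was at least 3.51-fold lower. Saa3 was too low to be tested in either comparison.

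Both orosomucoids were found at higher levels in KO than in WT. Orm1 was at 7.10, 6.99 and 6.88 CPM in KO and at 0.682, 0.962 and 1.42 CPM in WT, with no overlap. The difference was 6.89-fold (log2 2.79 ± 0.19 SE, adjusted p = 3.95e-09, edgeR quasi-likelihood test with Benjamini-Hochberg adjustment over 12093 genes). Orm2 was at 2.21, 1.48 and 1.59 CPM in KO and at 0.341, 0.514 and 0.356 CPM in WT, also with no overlap. The ratio of its counts was 4.35 with a 95% interval of 2.69 to 7.36 for counting error only; Orm2 passed the filter on low counts through the KO libraries alone, where it is high, so no test is given. The sum of both genes was 8.75 ± 0.486 CPM in KO and 1.43 ± 0.381 in WT (SD, n = 3).

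The marker sums of monocytes, macrophages and cholangiocytes were also higher in KO, but not those of every cell type. Stellate and fibroblast markers were lower, at 11.1 to 16.2 CPM in WT and 7.43 to 9.15 CPM in KO. Neutrophil marker sums overlapped, at 13.4 to 15.8 CPM in WT and 13.8 to 16.2 CPM in KO. The monocyte markers went from 1137 to 1238 CPM in WT to 2526 to 2638 CPM in KO, of which Fn1 alone gave 1074 to 1176 and 2422 to 2537. Fn1, fibronectin, is also made by many other cells, and the monocyte marker Ly6c2 went the other way, from 1.96 CPM in WT to 0.0714 CPM in KO. Macrophage markers summed to 11 to 12.8 CPM in WT and 19.9 to 20.9 CPM in KO, mostly Cd68, with 8.16 and 18.4 CPM. Lyz2 and Csf1r of that list went the other way, at 3.10 and 0.462 CPM in WT and 1.66 and 0.247 CPM in KO. Cholangiocyte markers summed to 1349 to 1459 CPM in WT and 1753 to 1813 CPM in KO, mostly Spp1, with 1359 and 1714 CPM. Epcam was at 15.6 and 36.3 CPM, Krt19 at 15.5 and 32.0 CPM and Cftr at 0.0985 and 0.266 CPM. Krt7 and Sox9 of that list went the other way, at 0.367 and 0.109 CPM in WT and 0.121 and 0.0949 CPM in KO. The hepatocyte marker sums given above stayed under 3 CPM in both groups. The part of other cells in the orosomucoid difference was not tested. In bulk libraries fewer cells of a type and less RNA per cell cannot be told apart, here and below.

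Normal liver stood lowest for both orosomucoids. Orm1 was at 0.108, 0.162 and 0.161 CPM there, 8 counts in all and under or at the floor of each library. The ratio of WT to normal liver counts was 7.14 with a 95% interval of 3.37 to 17.4 for counting error only, with no test, as Orm1 passed the filter through the WT libraries alone. Orm2 was at 0 in all normal liver libraries against 21 counts in WT, at least 2.50-fold higher in WT with the floor in each library. WT was the shared arm of both early HCC comparisons.

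In the Kupffer cells Orm1 was at 22.9, 6.34, 15 and 6.82 CPM in KC1 and at 2.76, 2.72, 3.05 and 3.8 CPM in KC2. These groups did not overlap, with a fitted difference of 4.87-fold, or 4.56-fold without KC2 replicate 1. Orm2 was at 2.82, 0.793, 1.20 and 1.78 CPM in KC1 and at 0, 0.494, 0.538 and 0.187 CPM in KC2. Its fitted difference was 6.09-fold, or 4.53-fold without KC2 replicate 1, on 105 counts against 20. Orm2 took 20% ± 3.3 of the pair's counts in KO, 29.4% ± 8.16 in WT (SD, n = 3) and 12.5% ± 5.70 in KC1 (SD, n = 4), and those ranges of KO and WT overlapped.

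Hepatocyte markers ran the other way between the Kupffer cell groups. Their sum was 56.4 to 94.9 CPM in KC1 and 193 to 318 CPM in KC2, and Alb was at 13.2 to 26.5 CPM in KC1 and 79.1 to 179 CPM in KC2. Other plasma proteins of hepatocytes, named here after their values were seen, were higher in KC1: the fibrinogen chains Fga, Fgb and Fgg were at 38.9, 29.5 and 23.4 CPM there against 13.4, 8.34 and 9.21 CPM in KC2, and haemopexin (Hpx) at 36.7 against 16.0 CPM. The part of hepatocytes in the values of Saa1, Saa2, Orm1 and Orm2 was not tested.

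Haptoglobin differed from the other acute phase members in being higher in KC2. It was at 70.6, 44.6, 58.5 and 37.3 CPM in KC1, a mean of 52.8 ± 14.8 (SD, n = 4). In KC2 it was at 64.7, 457, 188 and 392 CPM, a mean of 275 ± 181 (SD, n = 4). KC2 replicate 1 fell inside the KC1 range and the other 3 lay above it. The fitted difference was 4.55-fold, or 5.78-fold without KC2 replicate 1.

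Neutrophils also carry haptoglobin in their granules, and within KC2 their markers varied much as Hp did. The 12 neutrophil markers summed to 867, 4906, 2046 and 5238 CPM in KC2 replicates 1 to 4, the same order of replicates as for Hp except at the top. In KC1 they summed to 758, 475, 598 and 639 CPM, not in the order of Hp, and mostly from Csf3r at 423 to 576 CPM. S100a8, a calprotectin subunit of neutrophils, was at 16.2 to 62.5 CPM in KC1 and 235 to 1472 CPM in KC2, while the granule enzymes Mpo and Elane were at 17.1 CPM or less. Monocyte markers summed to 368, 775, 698 and 791 CPM in KC2 replicates 1 to 4, the same order of replicates as for the neutrophil markers. In KC1 the monocyte markers summed to 459.7 to 647 CPM, mostly from Plac8 at 401 to 557 CPM. The part of neutrophils, monocytes and other cells in the Hp result was not tested.

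**Figure D2:**
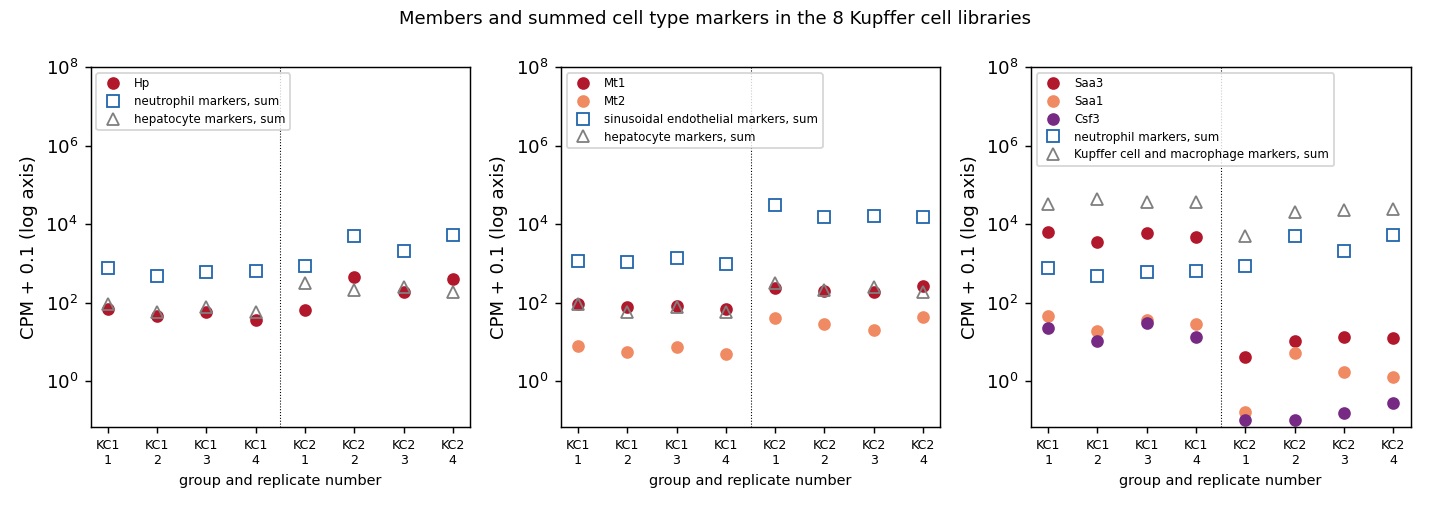
Members (filled) and summed cell type markers (open) in the 8 Kupffer cell libraries, in CPM plus 0.1 on a log axis. Hp and the neutrophil markers are both lowest within KC2 in replicate 1 (64.7 and 867 CPM), and the sinusoidal endothelial markers are at 14998 CPM or more in every KC2 library.

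In the early HCC and liver cells Hp was close to absent. KO held 4 counts, at 0, 0.171 and 0.0566 CPM, and WT held 5, at 0.120, 0.114 and 0.0574 CPM. Both were too low for a test, and the ratio of WT to KO was 1.27 with a 95% interval of 0.274 to 6.41 that covers counting error only. Normal liver had 48 counts, at 0.866, 0.812 and 0.912 CPM. The ratio of normal liver to WT counts was 8.92 with a 95% interval of 3.57 to 28.7 for counting error only, with no test, as Hp passed the filter through the normal liver libraries alone.

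The metallothioneins were the most abundant members in the early HCC cells and were higher in KO than in WT by a small margin. Mt1 was at 938, 969 and 965 CPM in KO and at 736, 756 and 864 CPM in WT. Mt2 was at 1187, 1222 and 1203 CPM in KO and at 895, 883 and 1065 CPM in WT. Neither gene's groups overlapped. The differences were 1.24-fold for Mt1 (log2 0.31 ± 0.05 SE, adjusted p = 3.27e-05, edgeR) and 1.29-fold for Mt2 (log2 0.37 ± 0.05 SE, adjusted p = 1.86e-05, edgeR).

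Normal liver was far lower for both genes. Mt1 was at 131, 126 and 137 CPM there, and Mt2 at 90.2, 88.4 and 85.4 CPM. WT was 5.80-fold higher for Mt1 (log2 2.54 ± 0.05 SE, adjusted p = 4.65e-17, edgeR) and 10.4-fold higher for Mt2 (log2 3.38 ± 0.06 SE, adjusted p = 5.97e-18, edgeR). Per length, Mt2 was at 2356 ± 34.5 RPKM and Mt1 at 1744 ± 30.8 RPKM in KO, while in normal liver Mt2 was at 172 ± 4.77 and Mt1 at 239 ± 10.2 RPKM (SD, n = 3). Cell type markers differed widely between the same groups. Of the cholangiocyte markers, Krt19, Krt7 and Sox9 were at 15.5, 0.367 and 0.109 CPM in WT against 1063, 403 and 52.5 CPM in normal liver. Epcam was at 15.6 CPM against 0 and Spp1 at 1359 against 161 CPM. The list summed to 1349 to 1459 CPM, mostly Spp1, in WT against 1659 to 1692 CPM, mostly Krt19, in normal liver. Endothelial markers summed to 1.69 to 2.64 CPM in WT and 69.7 to 73.6 CPM in normal liver, where Ptprb alone gave 69.3 to 73.3 CPM. Monocyte markers summed to 1137 to 1238 CPM and 682 to 689.7 CPM, with Fn1 at 1121 and 335 CPM but Plac8 at 0.137 and 348 CPM. The part of these cells in the metallothionein, orosomucoid and Hp values was not tested.

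In the Kupffer cells Mt1 was at 93.2, 78.0, 82.6 and 67.4 CPM in KC1 and at 236, 196, 184 and 263 CPM in KC2. Mt2 was at 7.69, 5.31, 7.48 and 4.88 CPM in KC1 and at 41.4, 28.6, 20.5 and 44.0 CPM in KC2. The groups did not overlap for either gene. KC2 was 2.33-fold higher for Mt1 and 4.48-fold higher for Mt2 in the fit, or 2.35-fold and 4.32-fold without KC2 replicate 1. Sinusoidal endothelial markers summed to 989 to 1346 CPM in KC1 and to 30245, 15648, 15994 and 14998 CPM in KC2. Cholangiocyte markers summed to 6.46 to 15.5 CPM in KC1 and 164 to 953 CPM in KC2, mostly Spp1, with means of 10.6 and 439 CPM. The part of these cells and of hepatocytes in the metallothionein result was not tested.

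The balance between the metallothioneins also varied with the group. Mt2 made up 55.7% ± 0.190 of their summed counts in KO, 54.6% ± 0.692 in WT and 40.2% ± 1.55 in normal liver (SD, n = 3). In the Kupffer cells it made up 7.26% ± 0.868 in KC1 and 13% ± 2.19 in KC2 (SD, n = 4). The highest library of either Kupffer cell group, 14.9%, lay below the lowest of the other groups, 38.4%. Expected counts of both genes were fractional in the early HCC and liver libraries and whole numbers in the Kupffer cell libraries. Reads may thus have been divided between copies differently in the separately deposited tables. The part of this in the share was not tested.

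**Figure D3:**
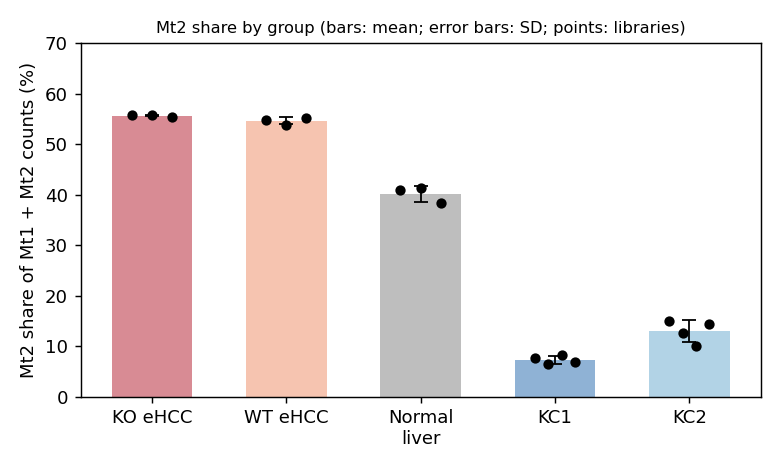
Share of Mt2 in the summed counts of Mt1 and Mt2, in percent, by group, where bars are means, error bars are SD and points are libraries. The early HCC groups sit at 53.9% or more, normal liver between 38.4% and 41.3%, and the Kupffer cell libraries between 6.37% and 14.9%.

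Csf3 was measurable in KC1 and nearly absent from KC2. It was at 22.4, 10.5, 29.7 and 13.2 CPM in KC1, a mean of 18.9 ± 8.79 (SD, n = 4). In KC2 it was at 0, 0, 0.0597 and 0.187 CPM, all at or under the floor of 3 counts per library. KC1 held 1222 counts and KC2 held 4, a ratio of 313 with a 95% interval of 122 to 1149 for counting error only. The fitted difference was 324-fold, or 241-fold without KC2 replicate 1 and 798-fold without KC2 replicate 4.

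Low levels of Csf3 were seen in the other cells. It was at 1.73, 1.37 and 1.36 CPM in KO, at 0.781, 1.14 and 1.09 CPM in WT and at 2.27, 1.52 and 2.57 CPM in normal liver. KO lay above WT in every library, but the 1.5-fold difference missed the threshold (log2 0.58 ± 0.26 SE, adjusted p = 0.0565, edgeR), with adjusted p from 0.0563 to 0.197 over the alternatives. WT was 2.17-fold lower than normal liver (log2 -1.12 ± 0.27 SE, adjusted p = 0.000902, edgeR).

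Of the 7 members with a row, Orm1, Mt1 and Mt2 were called as higher in KO and Csf3 was not called, where 64.5% of the 12093 genes tested were called, 32.3% as higher and 32.2% as lower. Orm2 passed the filter through KO alone, and Saa3 and Hp were under it. Between WT and normal liver Mt1 and Mt2 rose and Csf3 fell, where 87.2% of 12697 genes were called, 43.9% as higher and 43.3% as lower. Orm1 and Hp passed through 1 group alone, and Saa3 and Orm2 were under the filter. Since calls were this common among all genes, nothing is read from the number of members called; the common biological coefficient of variation was 0.034 and 0.0371. Between the Kupffer cell groups 59.8% of 12774 genes were called, 31.9% as higher and 27.9% as lower in KC2. The rule used this contrast, so no count of members is set beside that share. Of all genes called there, 53.4% were higher in KC2, or 65.5% with plain library totals, which move the median of all genes from 0.03 to 0.27 on the log2 scale. No member changed direction under that scaling.

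**Figure D4:**
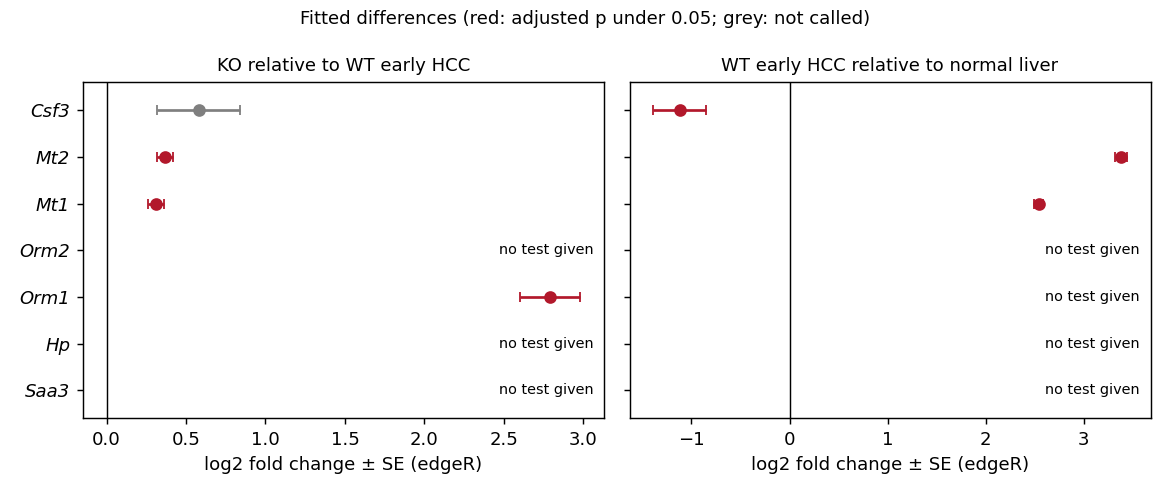
Fitted log2 fold change with its standard error (edgeR) for the 7 members with a row, KO relative to WT on the left and WT relative to normal liver on the right, where red points passed an adjusted p of 0.05. Orm1 lies at 2.79 on the left and Mt2 at 3.38 on the right, and members under the filter on low counts, or past it through 1 group alone, are marked as having no test given.

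Across the 5 groups the members fell into different orders of level. The order of mean CPM ran KO, WT, KC2, normal liver, KC1 for Mt1 and KO, WT, normal liver, KC2, KC1 for Mt2. It ran KC1, KC2, normal liver, KO, WT for Saa3, KC1, normal liver, KO, WT, KC2 for Csf3 and KC2, KC1, normal liver, WT, KO for Hp. For Orm1 it ran KC1, KO, KC2, WT, normal liver and for Orm2 KO, KC1, WT, KC2, normal liver. The overlapping neighbours were KC1 and KO for Orm1, KO with KC1, WT with KC2 and KC2 with normal liver for Orm2, KC2 with KC1 and WT with KO for Hp, and normal liver with KO for Csf3. The tables hold different gene rows and were deposited separately, so levels across them are set side by side and not tested. With scaling over the genes all 3 tables share, Mt1 was at 109.7 CPM in normal liver and 105 CPM in KC1, which leaves their order with little between them. The same scaling reversed KO and KC1 for Orm2, at 1.57 and 2.14 CPM against 1.76 and 1.65 CPM with plain totals, and put WT and KC2 at 0.352 and 0.349 CPM.

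Other acute phase proteins moved in both directions from WT to KO. Of 23 listed genes 16 had a row and 5 were tested; 2 rose and 3 fell in KO, with a median log2 difference of -0.40 against 0.00 for all genes tested. The copper-carrying ferroxidase Cp rose 2.13-fold (6.99 ± 0.741 against 3.35 ± 0.166 CPM) and the interleukin-1 receptor antagonist Il1rn rose 2.44-fold (14.4 ± 1.03 against 6.01 ± 0.340 CPM). The siderophore-binding Lcn2 fell 3.36-fold (3.77 ± 0.430 against 12.9 ± 1.35 CPM), the complement component C3 fell 1.32-fold and the complement factor Cfb 1.71-fold. All SDs have n = 3, and adjusted p in edgeR was between 3.14e-09 and 0.0126 for these 5. Cfb lost its call under 2 alternatives, with DESeq2 and without WT replicate 3. A further orosomucoid copy, Orm3, was too low to be tested, with 24.12 counts in KO and 4 in WT, a ratio of 5.93 with a 95% interval of 2.03 to 23.4 for counting error.

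Of 15 tested receptors and signal carriers of the acute phase 4 rose and 5 fell in KO, or 2 and 5 with plain library totals, beside 32.3% and 32.2% of all genes. They include the interleukin-1 receptor Il1r1, 2.69-fold lower (5.86 against 16.1 CPM), the oncostatin M receptor Osmr, 1.60-fold lower, and the interleukin-11 receptor Il11ra1, 1.68-fold higher. Of 13 transcription factors and feedback genes 4 rose and 5 fell. Cebpb, a C/EBP factor of the acute phase, rose 1.42-fold (154 ± 1.64 against 110.4 ± 4.96 CPM), and Socs3, which damps STAT3 signalling, fell 1.77-fold (15.6 ± 0.797 against 28.2 ± 1.28 CPM). Il6 itself was low, with 13 counts in KO and 31 in WT, and was not tested. The interleukin-6 family cytokine Lif rose 1.14-fold, from 143 ± 3.75 CPM in WT libraries to 159.8 ± 3.0 CPM in KO.

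Among 19 tested genes of metal regulation 9 rose and 7 fell in KO, with a median log2 difference of 0.11. Mtf1, the metal-sensing activator of metallothioneins, rose 1.68-fold (42.6 ± 0.914 against 25.9 ± 1.45 CPM, adjusted p = 1.21e-08, edgeR). The minor metallothionein Mt4 rose 2.75-fold (8.79 against 3.26 CPM) and the copper importer Slc31a1 2.04-fold (37.3 against 18.6 CPM). The zinc importer Slc39a4 fell 1.98-fold (592 ± 18.3 against 1196 ± 63.1 CPM). Of 8 glucocorticoid targets 4 rose and 2 fell, among them Dusp1, 1.5-fold higher, and Tsc22d3, 1.62-fold lower.

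Around Csf3, 3 of 9 tested genes of the colony stimulating factor axis rose and 3 fell in KO. The neutrophil chemokines Cxcl2 and Cxcl3 rose 2.19-fold (8.05 against 3.74 CPM) and 2.09-fold (4.58 against 2.25 CPM), and Csf1, the macrophage growth factor, fell 1.65-fold (48.4 against 81.2 CPM). Of 8 receptors and partners of the secreted members 2 rose and 5 fell. P2rx7, an ATP-gated channel that has been linked to serum amyloid A signalling, rose 9.61-fold (73.2 ± 3.53 against 7.76 ± 0.584 CPM, adjusted p = 4.92e-15, edgeR), and Tlr2 rose 1.82-fold.

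Between WT and normal liver, 5 of 7 other acute phase proteins fell and 2 rose, with a median log2 difference of -2.73 against 0.01 for all genes. Lbp, which carries lipopolysaccharide, fell 409-fold (0.428 against 179 CPM), Cp fell 123-fold (3.35 against 400.2 CPM) and Cfb fell 8.99-fold, while Lcn2 rose 2.44-fold. C3, the other gene called as higher, differed by 1.09-fold and lost its call under 8 alternatives. Normal liver thus held the higher level of Lbp, Cp and Cfb, and WT that of both metallothioneins.

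In the same comparison 11 of 20 tested genes of metal regulation rose and 5 fell, beside 43.9% and 43.3% of all genes. Slc39a4 rose 63.3-fold (1196 ± 63.1 in WT against 18.3 ± 1.29 CPM in normal liver) and the zinc exporter Slc30a1, itself an MTF1 target, rose 2.97-fold (116 against 37.7 CPM). The copper transporter Atp7b, of which WT held 12.03 counts, fell 186-fold, and Slc31a1 fell 5.0-fold. Mt4 was at 168 counts in WT and 1 in normal liver, a ratio of 181 with a 95% interval of 32.0 to 7183 for counting error, where the 1 count lay in normal liver replicate 1. Mtf1 was 1.13-fold higher (25.9 against 22.1 CPM, adjusted p = 0.0147, edgeR).

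Of 10 tested glucocorticoid targets 9 fell and 1 rose, with a median log2 difference of -2.03. Tsc22d3 fell 15.4-fold (15.5 against 231 CPM), Zbtb16 225-fold on 6.72 counts in WT and Angptl4 78.5-fold, and Errfi1 rose 2.26-fold. Of 13 transcription factors and feedback genes 8 rose and 5 fell, with Cebpa 5.59-fold and Cebpd 2.60-fold higher and the NF-kB inhibitor Tnfaip3 14.3-fold lower (5.48 against 75.8 CPM). Among 16 receptors and signal carriers 7 rose and 7 fell. Osmr and Il1rap were at 0 in normal liver, so that WT, with the floor in each library, was at least 51.4-fold and 105-fold higher, and the kinase Jak1 fell 24.2-fold (6.37 against 149.7 CPM). The median over this list was 0.22 with the fitted values and 0.22 with both genes at their bound. Of 3 inducing cytokines 2 rose, Lif by 2.38-fold and Ctf1 with 201 counts against 2, a ratio of 108 with a 95% interval of 29.6 to 899.

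Around Csf3 and the secreted members, 5 of 10 and 5 of 9 tested genes rose in WT, and 2 and 3 fell. The chemokine Cxcl2 rose 17.7-fold, on 11.29 counts in normal liver (41.1-fold without normal liver replicate 1), while Cxcl5, another ligand of the same receptor, fell 27.0-fold (0.933 against 24.5 CPM). Scarb1, the high-density lipoprotein receptor that also binds serum amyloid A, rose 335-fold (52.2 against 0.153 CPM). It had only 8.47 counts in normal liver, a ratio of counts of 343 with a 95% interval of 184 to 842 for counting error. Tlr2 rose 16.1-fold. Cd14 fell 32.5-fold (2.61 against 82.4 CPM), and the iron exporter Slc40a1 had 2 counts in WT against 1655, a ratio of 769 with a 95% interval of 213 to 6355; both counts lay in WT replicate 3.

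In the Kupffer cells, where these other genes could be tested, 13 of 20 other acute phase proteins were lower in KC2 and 2 were higher, with a median log2 difference of -1.60 against 0.03 for all genes. Without KC2 replicate 1 the counts were 14 and 2. Of all genes tested in the Kupffer cells 27.9% were called as lower and 31.9% as higher, the shares to set beside each list below. Cfb fell 81.5-fold (69.7 ± 23.0 against 4899 ± 271 CPM, n = 4) and Il1rn 12.3-fold (122 ± 69.6 against 1304 ± 207 CPM). Saa4, the constitutive serum amyloid, fell 11.7-fold (0.834 ± 1.25 against 8.48 ± 4.65 CPM), or 42.8-fold without KC2 replicate 2. It was at 0.0599, 2.66, 0 and 0.622 CPM in KC2 replicates 1 to 4. As Saa4 passed the filter on low counts in every KC1 library but not in every KC2 library, no p-value is given. Its call is among the 13. Higher in KC2 were Serpina1a, an antitrypsin of hepatocytes, by 3.61-fold (30.9 against 7.29 CPM) and the metalloreductase Steap4 by 4.76-fold. Steap4 lost its call under 4 alternatives, among them the replicate block.

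The inducing cytokines differed in opposite directions, with 4 of 7 tested genes higher and 3 lower in KC2, the same counts without KC2 replicate 1. With plain library totals 4 were higher and 1 lower. Il6 was at 12.7 ± 3.69 CPM in KC1 and 0.997 ± 0.503 CPM in KC2, 14.8-fold lower (adjusted p = 1.89e-05, edgeR). Osm, another cytokine of the interleukin-6 family, was 21.8-fold higher (407 ± 295 against 16.3 ± 8.68 CPM) and Ifng 117-fold higher (28.0 ± 24.7 against 0.189 ± 0.226 CPM), where Ifng stood at 71.5-fold without KC2 replicate 1 and 252-fold without KC1 replicate 1. The receptors Osmr, Lifr and Il1r1 were 153-fold, 69.1-fold and 34.1-fold higher in KC2, among 6 of 16 receptors and signal carriers that rose and 4 that fell (7 and 4 without KC2 replicate 1). Osmr differed by 419-fold without KC1 replicate 4. Endothelial cells are known to express Osmr and Lifr, and their marker sums are given with the metallothioneins, and T, NK and B cell markers, cells that make Ifng, summed to 10.1 to 15.1 CPM in KC1 and 201 to 1028 CPM in KC2. The part of these cells in the cytokine and receptor values was not tested.

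Of the 13 transcription factors and feedback genes, 2 rose and 3 fell in KC2, or 4 and 3 without KC2 replicate 1. Plain library totals, which shift all genes, gave 6 and 3. Zc3h12a, an RNase that degrades Il6 messenger RNA, fell 3.30-fold (12.7 against 36.2 CPM), and the NF-kB subunit Nfkb2 fell 2.11-fold. Nfkbiz, a cofactor for NF-kB at acute phase genes such as Lcn2, rose 2.49-fold but lost its call under 6 alternatives, among them the replicate block.

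Genes of metal regulation were mostly lower in KC2, where the metallothioneins were higher. Of 19 tested, 12 fell and 4 rose, or 12 and 3 without KC2 replicate 1 and 10 and 4 with plain library totals. Among all genes 27.9% fell and 31.9% rose. The median log2 difference of the list was -0.66 against 0.03 for all genes. The zinc importer Slc39a14, known as an interleukin-6 target in liver, fell 5.78-fold (2.95 ± 0.974 against 14.6 ± 0.965 CPM), and the iron transporter Slc11a2 fell 3.21-fold. Slc39a8, also a zinc importer, rose 50.8-fold (176 ± 37.0 against 2.92 ± 1.60 CPM). Mtf1 fell 1.69-fold (18 ± 4.88 against 25.9 ± 3.67 CPM, adjusted p = 0.0109, edgeR). Of 11 glucocorticoid targets 6 rose and 1 fell, or 7 and 1 without KC2 replicate 1, with Zbtb16 34.4-fold (73.5-fold without KC1 replicate 2), Klf9 7.39-fold and Sgk1 6.36-fold higher (780.4 ± 128 against 104 ± 21.1 CPM for Sgk1).

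Around Csf3 the Kupffer cell groups differed in both growth factors and receptors, with 6 of 11 tested genes higher and 3 lower in KC2, or 6 and 4 without KC2 replicate 1. Csf1 rose 16.5-fold (167 ± 58.7 against 8.73 ± 2.40 CPM), and Csf2 had 115 counts in KC2 against 1 in KC1, a ratio of 112 with a 95% interval of 19.8 to 4476; the 1 count lay in KC1 replicate 2, and the fitted difference was 63.6-fold, or 41.4-fold without KC2 replicate 1 and 204-fold without KC1 replicate 2. The receptor subunits Csf2ra, Csf2rb and Csf2rb2 fell 2.63-fold, 4.09-fold and 6.75-fold. Of 12 receptors and partners of the secreted members 7 fell and 1 rose, or 9 and 2 without KC2 replicate 1. Hmox1, which degrades the haem that haptoglobin-bound haemoglobin brings into macrophages, fell 7.45-fold (428 ± 185 against 2774 ± 289.6 CPM), the formyl peptide receptor Fpr1 fell 9.38-fold and the scavenger receptor Cd36 rose 11-fold, or 19-fold without KC1 replicate 2.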

How the data were processed

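Poly(A)-selected RNA of 17 libraries was measured with stranded libraries, per the labels' protocols. The authors deposited expected counts per gene in 3 tables, 1 for each comparison; FastQC, HISAT, RSEM and build mm10 are named by the submitters' processing notes, with no versions or roles, and whether counting used strand is not given in the sources used here. Expected counts were rounded to whole numbers. The main test was edgeR 4.0.16 (quasi-likelihood, TMM scaling, filterByExpr) in R 4.3.3, on the groups compared, with Benjamini-Hochberg adjustment over all genes tested and a threshold of 0.05. DESeq2 1.42.0, other scalings, no filter, left-out replicates, a block and summed copies were alternatives. CPM used plain library totals, and RPKM the length of the first annotated transcript (GENCODE M21). Tested on simulated data with changes of 1 on the log2 scale, the fit recovered 94.0% of 100 genes for KO against WT (12075 genes) and 56.1% of 98 for KC2 against KC1 (12992 genes). The simulation changed only a small part of the genes, gave all genes the same dispersion and held no odd library. In the real data most genes were called, so these rates do not describe them.

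Named were all members, whatever their values, and from each of 8 lists and each comparison up to 3 called genes per direction with the largest fold changes. The 3 genes nearest to each member by Pearson correlation of log2(CPM + 1) were also named, among genes with a mean of at least 5 CPM. Mtf1 outside KO against WT, Il6 outside the Kupffer cells and marker genes, Orm3, Fga, Fgb, Fgg and Hpx were named for their role after their values were seen. Members and lists were chosen with earlier results of these data known. Intervals and floors cover counting error only.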

Additional observations from a re-analysis of the deposited data

Results flagged for a closer look

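A test for a single library far from the rest of its group was made on 118 groups of 4 libraries, for members, named Kupffer cell genes and summed markers. It singled out 9, where chance gives about 1 in 20 groups. None was a member.

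KC2 replicate 1 was the odd library in 5 of them. Its sinusoidal endothelial markers summed to 30245 CPM against 15994 for the next library. It was lowest for genes that macrophages express: Tnf at 79.8 CPM, Csf2ra at 75.4 CPM, Csf2rb2 at 16.2 CPM and Lrp1 at 59.4 CPM, against 201, 212, 47.0 and 262 CPM for the next library.

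In KC1, replicate 2 was odd for Serpina1a, at 4.23 CPM against 7.91 for the next library, for Cd36, at 141 CPM against 40.1, and for Csf2, at 0.0610 CPM where the others were at 0. KC1 replicate 4 was odd for Osmr, at 0.912 CPM against 0.180.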

How the results depend on the processing

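The number of genes called stayed within 1.5 times in all 40 alternatives: 6990 to 7962 for KO against WT (7262 to 7707 with 1 library left out), 10698 to 11890 for WT against normal liver (10927 to 11090) and 7114 to 7956 for KC2 against KC1 (7114 to 7804). Of 256 member values under alternatives, 255 kept their direction and call or, in the Kupffer cells, moved by less than a limit. The 256 include 126 Kupffer cell values, and values of Orm2, Orm1 and Hp from comparisons where their tests are not given. The count therefore describes the fits and is no support for those differences. The Kupffer cell limit was the root of the summed variances of the gene's log2 level in KC1 and KC2. It is at least as wide as the SD of either group. Under that rule a variable gene can move far. Csf3 went from 324-fold to 798-fold without KC2 replicate 4, and Saa1 from 18.6-fold to 38.9-fold without KC2 replicate 2. The value over its limit was that of Mt2 in the Kupffer cells, 2.16 on the log2 scale alone and 1.31 when summed with Mt1. No fitted difference reversed. Scaled over the genes all tables share, 12 of 39 mean levels of members by group moved by more than 1 SD, and the order of KO and KC1 for Orm2 reversed (1.57 and 2.14 CPM).

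Deviations of same-numbered libraries from their group means had correlations of -0.010, 0.062 and 0.164 for KO and WT. Those of different numbers ran from -0.133 to 0.066 there, so 0.164, of replicate 3, was the highest. For WT and normal liver they were -0.177, -0.047 and -0.023, against -0.124 to 0.173 for different numbers. For the Kupffer cells they were 0.034, 0.005, -0.030 and -0.009, against -0.117 to 0.103. With the replicate number as a block 7962, 10911 and 7287 genes were called.

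Among named genes 5 of 40, 2 of 40 and 6 of 42 lost their call under at least 1 alternative: Cfb, Il1rap, Cebpa, Csf3r and Ager for KO against WT, C3 and Csf2rb2 for WT against normal liver, and Steap4, Tnf, Nfkbiz, Il1a, Lif and Slc39a4 for the Kupffer cells. Depth limits Saa3 and Hp in early HCC cells and Csf3 in KC2.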

Other observations

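The genes whose pattern over the 8 Kupffer cell libraries was most like a member's are given as a description, from 10210 candidates by Pearson correlation of log2(CPM + 1). The libraries form 2 groups, so any gene that differs strongly between KC1 and KC2 scores high. For Saa3 they were Zbp1, a sensor of nucleic acids, Slc7a2, an arginine transporter, and Sod2, the mitochondrial superoxide dismutase, each with r = 0.999. For Csf3 they were Hsbp1 (0.996), Tspo (0.995) and Psmb5 (0.995). For Saa1 they were H2bc6, Card19 and Alpk1 (0.990 to 0.992), and for Saa2 Cnbd2, H2bc6 and Card19 (0.983 to 0.989). Hp was closest to Zfp36, Wfdc21 and Hcar2 (0.989 to 0.991), which differ from the neighbours of the other acute phase members. Orm1 was closest to Sh3bgrl3, Mien1 and Josd2 (0.966 to 0.981), Mt1 to Kcne3, Spry4 and Bcl6b (0.992 to 0.997) and Mt2 to Srek1ip1, Mical2 and Pdcd6 (0.992 to 0.993).

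Over the 9 early HCC and liver libraries, from 10290 candidates, Mt2 was closest to Spp1, Trim14 and Pdlim1 (0.999 or more). Spp1, osteopontin, was at 1714 CPM in KO, 1359 in WT and 161 in normal liver. Mt1 was closest to St6galnac4, Aldoc and Banp (0.999 or more), Orm1 to Vat1, Huwe1 and Dhx16 (0.997 to 0.998), and Csf3 to Rabac1, Amdhd2 and Ints1 (0.950 to 0.959).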
